A study of Homo sapiens with 6 samples.

Results

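Mitochondrial ribosomal proteins were followed in RNA-seq of Huh7 cells, an established human hepatoma line, with and without a guide against HNRNPA2B1, which encodes an RNA-binding protein of the hnRNP family. The genes were chosen by symbol: every protein-coding row whose symbol begins with MRPL or MRPS and a number, with pseudogenes left out. This gave 78 of the 25202 rows of the table, 49 named MRPL for the large subunit and 29 named MRPS for the small subunit. The knockout group held 3 libraries of cells with the HNRNPA2B1 guide, labelled KO, and the control group held 3 libraries of cells with a non-targeting guide, labelled WT. Both groups were the same cultured liver cancer line. Whether the cells with the guide came from 1 clone or from a mixed population is not in the labels. Nothing there says that the libraries of a group came from separate cultures, so the spread behind each p-value is that between libraries and could be technical.

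The mitochondrial ribosome translates the few messages of the mitochondrial genome, which encode core subunits of the respiratory chain and of ATP synthase. Its ribosomal RNAs come from mitochondrial DNA, while its proteins are made in the cytosol from nuclear genes and imported. Part of these proteins descend from bacterial ribosomal proteins and part are found only in mitochondria, where they replace or extend shortened ribosomal RNA. The genes are active in nearly all cell types, among them the mitochondria-rich hepatocyte, and many of their promoters are known to lack a TATA box and to carry sites for ETS factors such as GABPA, for NRF1 and for YY1.

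Subunit names need care in this family. RefSeq places MRPS18A (mL66) and MRPS30 (mL65) in the large subunit in spite of their MRPS symbols. MRPS36 is listed there as KGD4, a subunit of the 2-oxoglutarate dehydrogenase complex. Counts are given by symbol first and by this nomenclature where it matters.

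Promoter sequences from RefSeq (GRCh38.p14) were matched to 70 of the 78 genes, which had 86 windows of 250 bases before to 50 bases after an annotated start. The 4 windows shown run from 120 bases before to 30 bases after the start, on the gene's own strand, and capitals mark matches to an ETS letter string (CCGGAAG, or CTTCCGG when read on the other strand) and to a YY1 letter string (AAGATGGCG). MRPS34 is shown as the strongly lowered gene with several ETS matches, MRPS30 and MRPS18A as the pair of large-subunit genes with MRPS names, and MRPL52 as a gene that holds both strings and was not lowered.
MRPS34, chr16:1773105-1773254, minus strand: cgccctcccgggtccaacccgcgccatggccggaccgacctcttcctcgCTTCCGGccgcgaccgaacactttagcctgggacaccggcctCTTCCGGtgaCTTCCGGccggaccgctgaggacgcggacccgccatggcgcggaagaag
MRPS30, chr5:44808827-44808976, plus strand: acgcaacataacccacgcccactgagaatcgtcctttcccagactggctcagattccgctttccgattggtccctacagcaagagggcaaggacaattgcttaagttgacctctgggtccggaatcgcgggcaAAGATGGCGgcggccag
MRPS18A, chr6:43687762-43687911, minus strand: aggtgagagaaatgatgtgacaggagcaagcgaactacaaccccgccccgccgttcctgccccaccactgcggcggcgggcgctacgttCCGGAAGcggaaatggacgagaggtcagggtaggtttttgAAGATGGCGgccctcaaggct
MRPL52, chr14:22829767-22829916, plus strand: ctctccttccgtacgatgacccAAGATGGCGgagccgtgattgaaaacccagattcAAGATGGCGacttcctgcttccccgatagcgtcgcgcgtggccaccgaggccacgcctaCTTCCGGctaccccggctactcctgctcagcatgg

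Library totals ran from 32517757 to 38870244 counts, and 16331 genes had enough counts to be tested. HNRNPA2B1 had 220, 235 and 234 CPM (counts scaled to a common library size with TMM factors) in the knockout libraries and 1101, 1072 and 1468 CPM in the control libraries. It was 5.29-fold lower in the knockout, with a log2 fold change of −2.40 ± 0.14 (SE) and an edgeR adjusted p of 2.28e-06. Among all tested genes 19.0% fell and 21.1% rose, at an edgeR adjusted p below 0.05. Hepatocyte markers were expressed in every library, and the sum of the 10 markers was 10736 to 11708 CPM in the knockout libraries and 17238 to 20895 CPM in the control libraries. The 5 endothelial markers summed to 31.1 to 35.3 CPM in the knockout and 54.6 to 70.4 CPM in the control, with 4 of them under 1 CPM in all libraries. The 5 fibroblast markers summed to 4.67 to 17.4 CPM in the knockout and 0.889 to 1.87 CPM in the control, and the 5 immune markers to 218 to 238 CPM and 509 to 578 CPM in the same groups. Knockout replicate 2 gave the highest fibroblast sum. Of the immune markers 2 were under 1 CPM in all libraries, and CD68 and LYZ made up most of the sum. Among the hepatocyte markers TTR alone had the higher mean in the knockout, 164 CPM against 140 CPM in the control. No marker was at 0 in all libraries, and the part of these differences in the results was not tested.

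The control libraries were less alike than the knockout libraries. Over the 78 genes, the median SD of log2 CPM was 0.0937 among knockout libraries and 0.207 among control libraries, and 70 genes had the larger SD of CPM in the control. Control replicate 3 was the lowest control library for 50 genes, and knockout replicate 3 was the highest knockout library for 55. The median deviation of the genes from the control mean was −0.36, −0.34 and −0.25 (log2 CPM) in knockout replicates 1, 2 and 3. It was 0.07, 0.10 and −0.14 in control replicates 1, 2 and 3. Every knockout library lay below every control library on this measure, and control replicate 3 was the nearest to the knockout.

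Mitochondrial ribosomal protein genes were lower in the knockout cells. All 78 passed the filter on low counts, 36 fell and none rose by edgeR's test, and 42 did not pass it. The share that fell was 46.2%, against a background of 19.0% of all tested genes and 24.6% of the 8908 tested genes in the abundance range of the family, which ran from 3.17 to 7.33 in log2 CPM. The median log2 fold change was −0.32 for the family, 0.05 for all tested genes and −0.06 for genes of like abundance. Log2 fold changes were negative for 65 genes and positive for 13. At an unadjusted p below 0.05, 42 genes were lower and 3 higher by edgeR. DESeq2 called 41 lower and limma-voom 36 lower, and each called 0 higher. With upper-quartile scaling 4 genes were called higher, with library size alone 5, with cyclic loess 2, and 2 when offsets for GC content and length entered the fit. In bulk RNA, fewer cells of a kind and less RNA per cell cannot be told apart.

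The sizes were moderate. The genes that fell were 1.22- to 2.33-fold lower in the knockout, and 5 of them were at least 2-fold lower. Log2 fold changes of the 42 other genes ran from −0.44 to 0.43. Every knockout library was below every control library for 41 genes, or 52.6%, against 24.8% of all tested genes and 31.5% of genes of like abundance. Every knockout library was above every control library for 3 genes, or 3.85%, against 29.6% of all tested genes. Of the 36 genes that fell, 34 had groups that did not overlap, and MRPL12 and MRPL34 had overlapping groups. A further 7 genes, MRPL10, MRPL19, MRPL40, MRPL42, MRPL50, MRPL58 and MRPS35, had groups that did not overlap, with lower knockout libraries, and were not called.

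**Figure D1:**
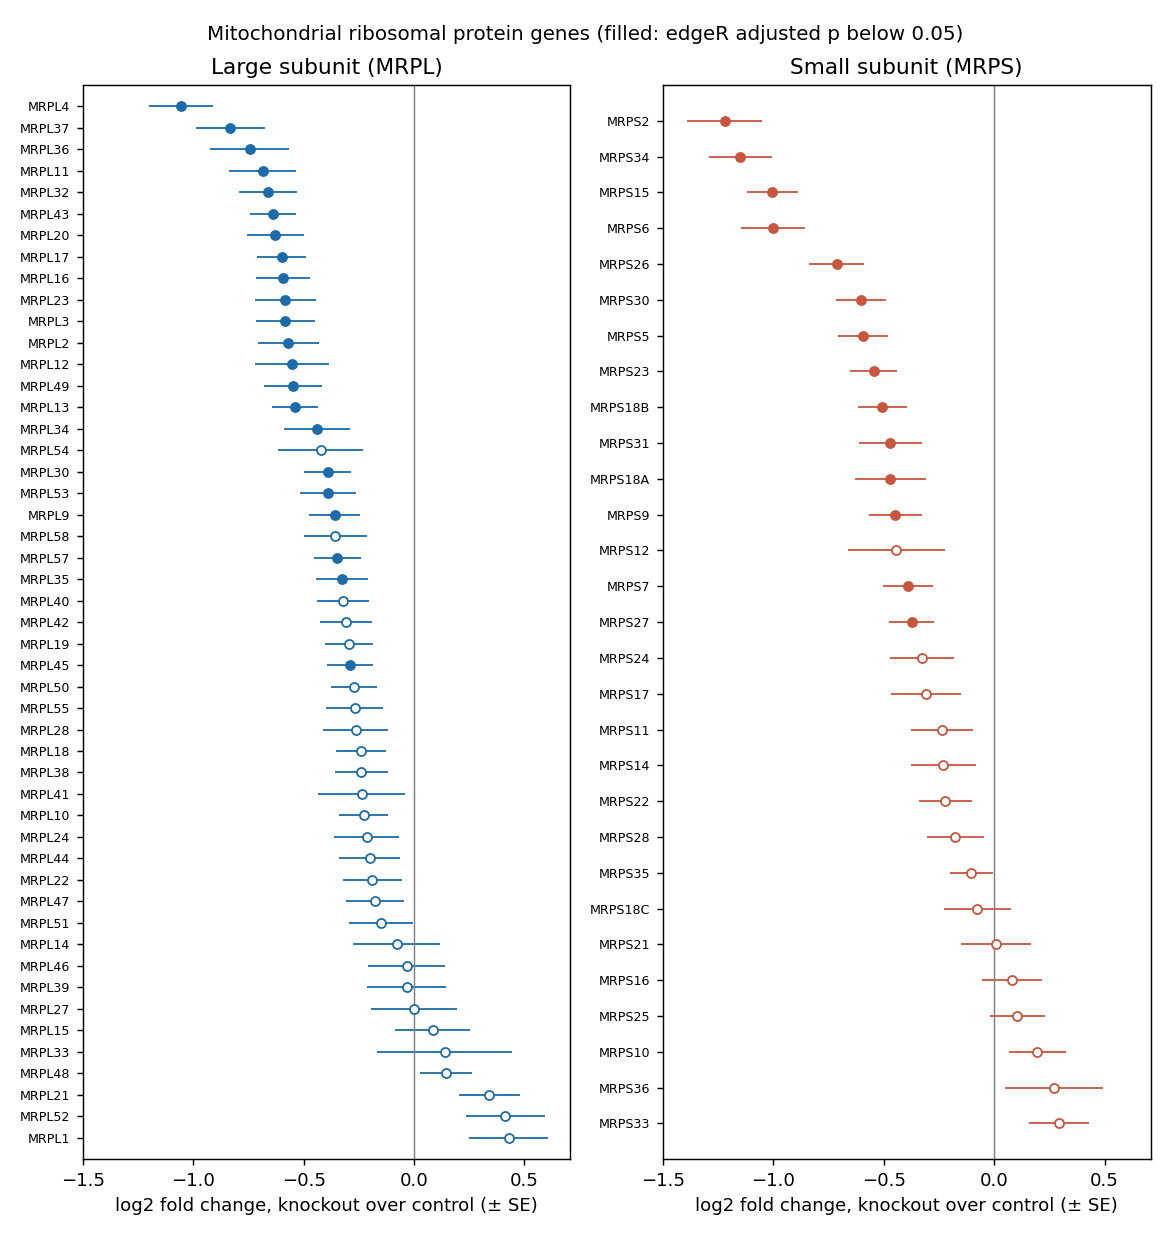
Log2 fold change of each gene, knockout over control, with its SE (horizontal axis), for the 49 MRPL genes on the left and the 29 MRPS genes on the right. Filled points passed an edgeR adjusted p of 0.05; they run from −1.22 for MRPS2 to −0.29 for MRPL45, and no gene right of 0 is filled.

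Of the 36 genes that fell, 23 were called in each of the 6 fits that left out 1 library. The other 13 lost the call in at least 1 of those fits: MRPL9, MRPL12, MRPL30, MRPL34, MRPL35, MRPL45, MRPL53, MRPL57, MRPS7, MRPS9, MRPS18A, MRPS27 and MRPS31. Of the 36, the number still called was 23, 23 and 25 without knockout replicates 1, 2 and 3, and 33, 30 and 36 without control replicates 1, 2 and 3. Over the whole family, the number that fell was 23 without knockout replicate 1, 23 without knockout replicate 2 and 50 without control replicate 3. Without control replicate 1, 35 genes of the family fell and 4 rose. The share of all tested genes called in these fits is not given here. The background of 19.0% belongs to the main fit, so these shifts cannot be read as particular to the family.

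Both subunits were lower, with medians close to each other. By symbol 44.9% of the large and 48.3% of the small subunit fell, against 19.0% of all tested genes. In the large subunit 22 of 49 genes fell and 27 were not called, with a median log2 fold change of −0.31 and a range from −1.06 to 0.43. In the small subunit 14 of 29 genes fell and 15 were not called, with a median of −0.37 and a range from −1.22 to 0.29. By RefSeq nomenclature, 24 of 51 large-subunit genes fell with a median of −0.32, and 12 of 27 small-subunit genes fell with a median of −0.33. Without MRPS36, 14 of 28 MRPS genes fell with a median of −0.38. Without knockout replicate 1 or without knockout replicate 2, 14 large-subunit genes fell, and without any 1 knockout library 9 small-subunit genes fell. The difference between subunits was not tested, since a test over the genes would treat them as replicates.

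Summed levels showed the same picture library by library. The 49 MRPL genes summed to 2012, 2041 and 2161 CPM in the knockout libraries, and to 2792, 2890 and 2527 CPM in the control libraries. The 29 MRPS genes summed to 1253, 1267 and 1357 CPM in the knockout libraries, and to 1715, 1788 and 1636 CPM in the control libraries. For both subunits every knockout library was below every control library, and control replicate 3 was the lowest control. Means were 2072 ± 78.8 CPM in the knockout and 2737 ± 188 CPM in the control for the large subunit (SD, n = 3 each), 24.3% lower in the knockout. They were 1292 ± 56.3 CPM in the knockout and 1713 ± 76.0 CPM in the control for the small subunit (SD, n = 3 each), 24.6% lower. The TMM factors were 1.08, 1.07 and 1.04 in the knockout libraries and 0.955, 0.935 and 0.925 in the control libraries. Factors above 1 lower the CPM and those below 1 raise it, so both percentages depend on the scaling. Sums by library size alone are not given here.

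The balance between the subunits depended on how it was measured. The ratio of summed CPM, large over small, was 1.61, 1.61 and 1.59 in the knockout libraries and 1.63, 1.62 and 1.54 in the control libraries. The groups overlapped, with means of 1.60 ± 0.00945 in the knockout and 1.60 ± 0.0452 in the control (SD, n = 3 each), and control replicate 3 was the lowest of the 6. With MRPS18A and MRPS30 counted in the large subunit, the mean ratio was 1.77 in the knockout and 1.78 in the control. Per kilobase of transcript it was 1.99 in the knockout and 1.92 in the control. With each gene weighted equally, the mean log2 CPM of the large subunit less that of the small subunit was −0.01, −0.02 and −0.02 in the knockout libraries and −0.04, −0.04 and −0.15 in the control libraries. On this measure the groups did not overlap, by a narrow margin, and control replicate 3 stood apart.

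**Figure D2:**
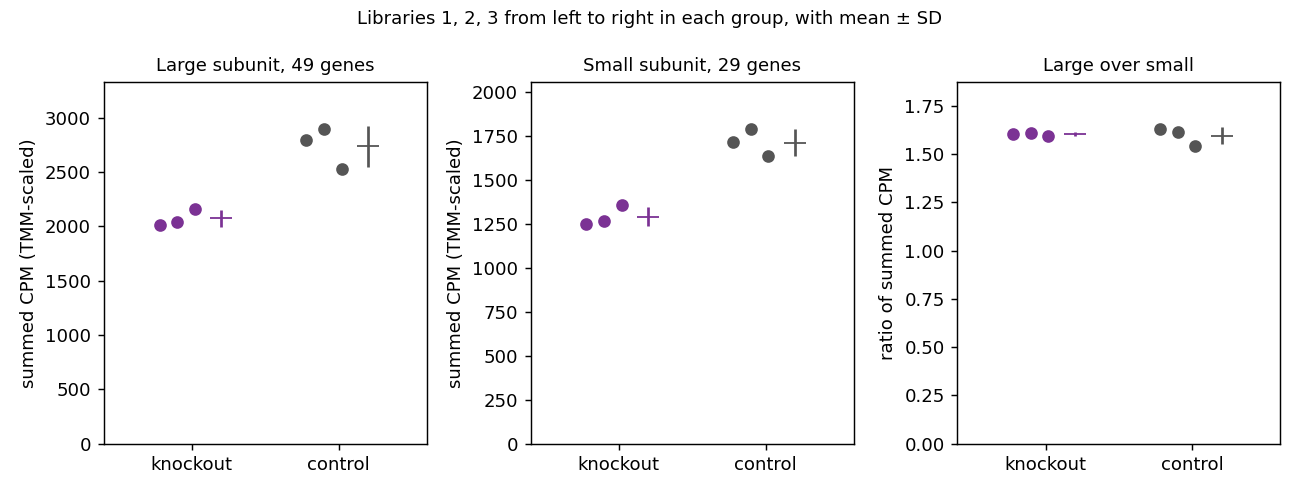
Summed TMM-scaled CPM of the large-subunit genes (left) and small-subunit genes (middle), and their ratio (right), with 1 point a library and the mean and SD beside the points. The knockout libraries sum to 2012 to 2161 CPM against 2527 to 2890 CPM in the control for the large subunit, while the ratios overlap, between 1.59 and 1.61 in the knockout and 1.54 and 1.63 in the control.

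The largest falls were led by the small subunit. MRPS2 (ENSG00000122140), the homolog of bacterial protein uS2, had 43.7, 48.6 and 50.3 CPM in the knockout libraries and 80.7, 118 and 133 CPM in the control libraries. Its groups did not overlap, and the highest knockout library was well under the lowest control. It was 2.33-fold lower in the knockout (log2 fold change −1.22 ± 0.17 SE, edgeR adjusted p 0.000446).

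MRPS34 (ENSG00000074071), a protein found only in mitochondrial ribosomes whose loss in people causes a mitochondrial encephalopathy, had 53.7, 51.5 and 59.6 CPM in the knockout libraries and 102, 145 and 119 CPM in the control libraries. The groups did not overlap, and the knockout libraries were close to each other. The gene was 2.22-fold lower in the knockout (log2 fold change −1.15 ± 0.14 SE, edgeR adjusted p 0.000204). Its promoter window holds ETS matches that begin at −71, −29 and −19 from the start.

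MRPL4 (ENSG00000105364), the homolog of uL4, which lines the peptide exit tunnel in bacterial ribosomes, had 51.5, 60.0 and 60.2 CPM in the knockout libraries and 96.0, 138 and 122 CPM in the control libraries. The groups did not overlap, and the gap between them was wider than the spread among the knockout libraries. It was 2.08-fold lower in the knockout (log2 fold change −1.06 ± 0.14 SE, edgeR adjusted p 0.000388).

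MRPS15 (ENSG00000116898), the homolog of uS15, which binds the small ribosomal RNA in bacteria, had 53.9, 54.0 and 63.7 CPM in the knockout libraries and 106, 119 and 119 CPM in the control libraries. Its control libraries were the most alike of these 10 genes, and it had the smallest edgeR adjusted p of the family, 0.000132 (log2 fold change −1.005 ± 0.11 SE). MRPS6 (ENSG00000243927), the homolog of bS6, had 15.1, 13.1 and 14.5 CPM in the knockout libraries and 30.02, 32.0 and 23.5 CPM in the control libraries. It fell by 1.003 on the log2 scale (edgeR adjusted p 0.000529), and its exons overlap those of SLC5A3 on the same strand in GENCODE release 29, so the genes can share reads.

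Among large-subunit proteins, MRPL37 (ENSG00000116221), which is found only in mitochondria, had 87.8, 91.8 and 95.6 CPM in the knockout libraries and 123, 176 and 191 CPM in the control libraries. MRPL36 (ENSG00000171421), a small zinc-binding protein, had 9.77, 11.7 and 10.3 CPM in the knockout libraries and 17.8, 21.5 and 13.8 CPM in the control libraries. In both genes the groups did not overlap, though the lowest control library lay closer to the knockout than in the genes above. MRPL37 and MRPL36 fell, with log2 fold changes of −0.83 and −0.74 (edgeR adjusted p 0.00216 and 0.00793).

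MRPS26 (ENSG00000125901), a small-subunit protein found only in mitochondria, had 30.6, 33.3 and 32.1 CPM in the knockout libraries and 55.4, 57.5 and 44.5 CPM in the control libraries. MRPL32 (ENSG00000106591), whose precursor is matured in yeast and mouse by the m-AAA protease before it joins the ribosome, had 26.0, 29.7 and 26.8 CPM in the knockout libraries and 37.4, 43.4 and 49.6 CPM in the control libraries. Neither gene had overlapping groups. MRPS26 and MRPL32 fell, with log2 fold changes of −0.71 and −0.66 (edgeR adjusted p 0.00156 and 0.00307).

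**Figure D3:**
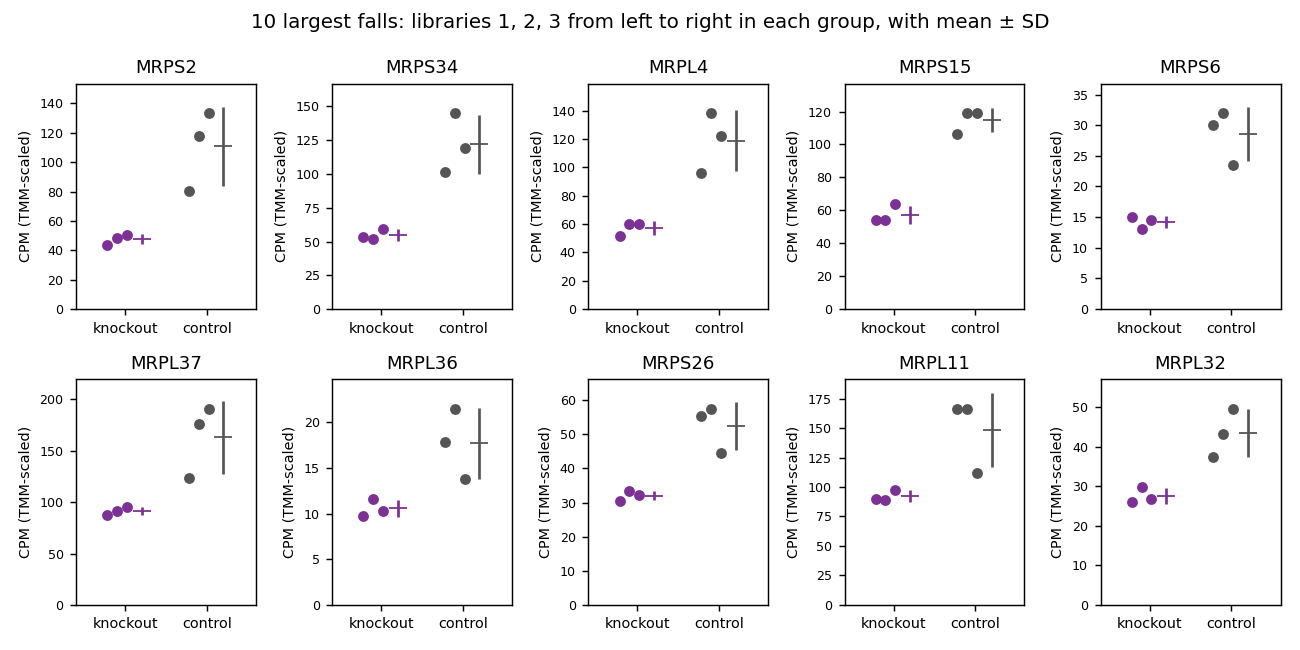
TMM-scaled CPM of the 10 genes with the largest falls, with 1 point a library (replicates 1, 2 and 3 from left to right, knockout left of control) and the mean and SD beside them. In each panel all 3 knockout points lie below all 3 control points, from 43.7 to 50.3 CPM against 80.7 to 133 CPM for MRPS2 to 9.77 to 11.7 CPM against 13.8 to 21.5 CPM for MRPL36.

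A further 11 large-subunit genes fell, namely MRPL43, MRPL20, MRPL16, MRPL3, MRPL2, MRPL49, MRPL13, MRPL34, MRPL9, MRPL57 and MRPL35, in order of size from −0.64 for MRPL43 to −0.33 for MRPL35 in log2 fold change. MRPL3, the homolog of uL3, which reaches towards the peptidyl transferase centre in bacteria, had 85.4, 89.3 and 96.4 CPM in the knockout libraries and 121, 123 and 162 CPM in the control libraries. MRPL2, the homolog of uL2, had 22.8, 24.2 and 25.9 CPM in the knockout libraries and 35.4, 42.2 and 30.5 CPM in the control libraries. Neither gene had overlapping groups. A further 6 MRPS genes fell, namely MRPS5, MRPS23, MRPS31, MRPS9, MRPS7 and MRPS27, from −0.59 for MRPS5 to −0.37 for MRPS27. MRPS27, a pentatricopeptide repeat protein, had 105, 97.3 and 106 CPM in the knockout libraries and 126, 140 and 134 CPM in the control libraries, with groups that did not overlap. It was not called without any 1 knockout library.

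Some genes with central roles did not pass the test. MRPS12, the homolog of uS12 at the decoding centre, had 32.1, 33.6 and 36.0 CPM in the knockout libraries and 61.4, 47.8 and 28.9 CPM in the control libraries. Its control libraries spread widely, the groups overlapped, and it had a log2 fold change of −0.44 and an edgeR adjusted p of 0.135. MRPL58, a peptidyl-tRNA hydrolase that releases chains from stalled ribosomes, had 20.8, 17.3 and 20.7 CPM in the knockout libraries and 26.3, 28.0 and 21.0 CPM in the control libraries. Its groups did not overlap, and it had a log2 fold change of −0.36 and an edgeR adjusted p of 0.0735.

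The genes of the stalk, the flexible part of the large subunit that recruits translation factors, were lower in part. Of 5 genes 3 fell, or 60%, against 19.0% of all tested genes, with a median log2 fold change of −0.42. MRPL11 (ENSG00000174547), at the stalk base, had 89.7, 89.1 and 97.8 CPM in the knockout libraries and 166, 166 and 112 CPM in the control libraries. Control replicate 3 was far below the other two but still above the knockout libraries, and the gene fell by 0.69 on the log2 scale (edgeR adjusted p 0.00557). MRPL12, which is present in several copies on the stalk, had 61.0, 59.3 and 67.1 CPM in the knockout libraries and 101, 108 and 66.1 CPM in the control libraries. Its groups overlapped through control replicate 3, and it fell by 0.55 (edgeR adjusted p 0.0245). It was called in 1 of the 6 fits that left out a library, that without control replicate 3. MRPL53 fell by 0.39 (edgeR adjusted p 0.0328), a call that was lost without knockout replicate 1 or 2 or control replicate 2. MRPL10, which anchors the MRPL12 copies, had 46.3, 46.5 and 46.3 CPM in the knockout libraries and 52.9, 60.3 and 49.7 CPM in the control libraries, with groups that did not overlap and an edgeR adjusted p of 0.126. MRPL54 had an edgeR adjusted p of 0.103. Of this group, a single gene fell when knockout replicate 1, knockout replicate 2 or control replicate 2 was left out, and 5 fell when control replicate 3 was.

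Around the exit tunnel, through which the new chain leaves the ribosome, 3 of 6 genes fell, with a median of −0.25. This share of 50% stands beside 19.0% of all tested genes. MRPL17 had 38.3, 34.0 and 39.1 CPM in the knockout libraries and 57.4, 58.7 and 52.6 CPM in the control libraries. MRPL23 had 33.8, 33.5 and 38.5 CPM in the knockout libraries and 53.7, 61.0 and 43.9 CPM in the control libraries. Neither gene had overlapping groups, and MRPL17 and MRPL23 fell, with log2 fold changes of −0.60 and −0.58 (edgeR adjusted p 0.00202 and 0.00737). MRPL45, which tethers the ribosome to the inner membrane, fell by 0.29 (edgeR adjusted p 0.0477), a call that was lost without any 1 knockout library or without control replicate 2. MRPL22, MRPL24 and MRPL47 had log2 fold changes of −0.19, −0.21 and −0.17 and were not called. MRPL4 was not in this group; with it, 4 of 7 genes fell and the median was −0.29.

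The central protuberance, the lobe of the large subunit that faces the small one, held no gene that passed the main test: 0 of 6 genes fell by edgeR's adjusted p or by limma-voom, against 1 at an unadjusted p below 0.05 and 1 by DESeq2, with a median log2 fold change of −0.14. MRPL40 had 28.9, 30.4 and 31.5 CPM in the knockout libraries and 33.4, 41.0 and 39.0 CPM in the control libraries, with groups that did not overlap and an edgeR adjusted p of 0.0511. MRPL18, MRPL38, MRPL46, MRPL27 and MRPL48 had log2 fold changes of −0.24, −0.24, −0.03, 0.00 and 0.15 with overlapping groups. With offsets for GC content and length 3 of the 6 fell, without control replicate 3 it was 2 and without control replicate 1 it was 1. Of all tested genes 19.0% fell in the main fit, and the difference from the other structural groups was not tested.

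The MRPS18 family consists of 3 paralogs that share ancestry with bacterial bS18 and sit at different places in the ribosome. MRPS18B (mS40) had 42.2, 41.0 and 47.1 CPM in the knockout libraries and 58.2, 66.4 and 60.5 CPM in the control libraries, and fell by 0.51 on the log2 scale (edgeR adjusted p 0.00508). MRPS18A (mL66) had 21.4, 18.5 and 20.04 CPM in the knockout libraries and 23.9, 34.9 and 24.4 CPM in the control libraries, and fell by 0.47 (edgeR adjusted p 0.0392). Control replicate 2 was high for MRPS18A, and the gene was not called without it or without any 1 knockout library. MRPS18C (bS18m), which takes the place of the bacterial protein, had 12.01, 15.2 and 13.3 CPM in the knockout libraries and 15.8, 14.2 and 12.7 CPM in the control libraries, with groups that overlapped and an edgeR adjusted p of 0.719.

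MRPS30 (mL65), the second large-subunit protein with an MRPS name, had 56.0, 55.9 and 62.2 CPM in the knockout libraries and 78.8, 91.1 and 94.5 CPM in the control libraries. The groups did not overlap, and the gene fell by 0.60 on the log2 scale (edgeR adjusted p 0.00225). Its promoter window holds a YY1 match that begins at base 14 of the transcript, and that of MRPS18A holds an ETS match at −31 and a YY1 match at base 10.

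No gene with a higher mean in the knockout passed the test. MRPL1 (uL1m) had 11.3, 14.8 and 10.4 CPM in the knockout libraries and 10.2, 8.25 and 8.68 CPM in the control libraries, with a log2 fold change of 0.43 and an edgeR adjusted p of 0.0812. MRPL52 had 49.8, 49.8 and 52.7 CPM in the knockout libraries and 47.4, 40.0 and 26.8 CPM in the control libraries, with a log2 fold change of 0.41 and an edgeR adjusted p of 0.0902. MRPL1, MRPL52 and MRPS33 were the genes whose knockout libraries all lay above the control libraries, by a narrow margin in each. MRPL21, MRPS33 and MRPS36 had log2 fold changes of 0.34, 0.29 and 0.27. MRPL21 was called higher with upper-quartile scaling, library size alone, cyclic loess, offsets for GC content and length, without the added loci and without control replicate 1, and MRPL52 in all of these but the fit without added loci.

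Levels differed widely among the genes. By counts, MRPS35, MRPL30 and MRPL37 had the highest mean log2 CPM of the family, and MRPL54, MRPL33 and MRPL1 the lowest. MRPS35 had 152, 150 and 163 CPM in the knockout libraries and 168, 166 and 165 CPM in the control libraries, with groups that did not overlap and an edgeR adjusted p of 0.422. MRPL30 had 127, 133 and 138 CPM in the knockout libraries and 190, 174 and 159 CPM in the control libraries, and fell by 0.39 on the log2 scale (edgeR adjusted p 0.0153), a call that was lost without knockout replicate 1 or 2. Per kilobase of transcript the order differed: MRPL51 had the highest level, with 121 CPM per kb in the knockout and 134 CPM per kb in the control, and MRPS14 the lowest, with 6.69 CPM per kb in the knockout and 7.85 CPM per kb in the control. The median level was 34.8 CPM per kb in the knockout and 45.6 CPM per kb in the control for the large subunit, and 28.4 and 40.3 CPM per kb in the same groups for the small subunit.

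Genes classed as having a bacterial homolog and those classed as mitochondria-specific fell in shares close to each other. These were 48.9% and 45.2%, against 19.0% of all tested genes. Of 45 genes with a bacterial homolog 22 fell, with a median log2 fold change of −0.33, and of 31 mitochondria-specific genes 14 fell, with a median of −0.32. With the subunit taken from the nomenclature, 16 of 29 bacterial-type genes of the large subunit fell and 6 of 16 of the small subunit, while 8 of 21 mitochondria-specific genes of the large subunit fell and 6 of 10 of the small subunit. MRPS18A and MRPS18B, which share ancestry with bacterial bS18, were classed as mitochondria-specific, and both fell. Counts with them in the other class are not given here. MRPL55 and MRPS36 were in neither class. RefSeq names MRPL55 as a bacterial-type protein (bL31m), and with it 22 of 46 such genes fell, still with a median of −0.33. Of the mitochondria-specific genes 8, 8 and 9 fell without knockout replicates 1, 2 and 3. The difference between classes was not tested.

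**Figure D4:**
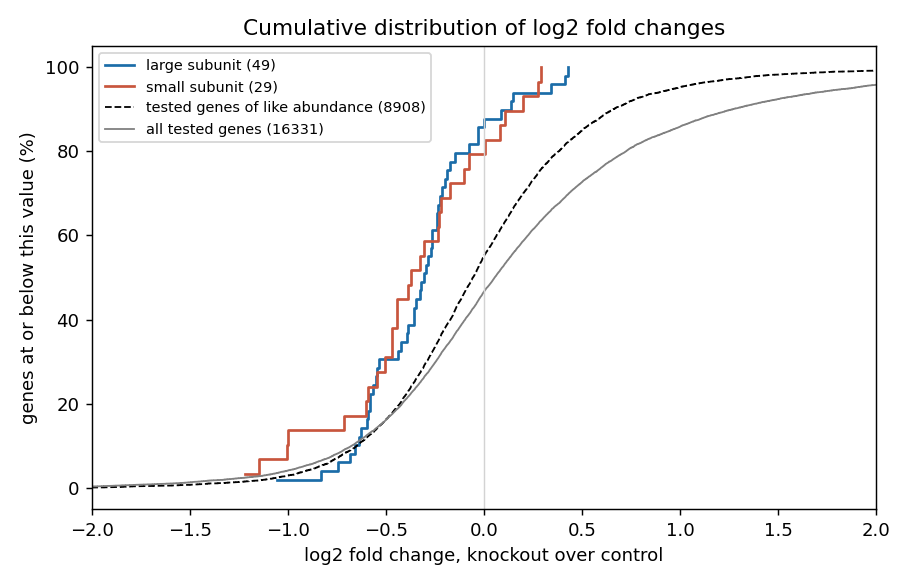
Cumulative distribution of log2 fold changes, knockout over control: the vertical axis gives the percent of genes at or below each value for the 49 MRPL genes, the 29 MRPS genes, the 8908 tested genes of like abundance and all 16331 tested genes. Both subunit curves lie left of the curves for other genes above about −0.5, with medians of −0.31 and −0.37 against −0.06 and 0.05.

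The GC content of the transcripts moved with the fold change among these genes. Over the 78 genes, Spearman's rho between GC content and log2 fold change was −0.43, against −0.08 over 13803 tested genes; genes are not independent replicates, and they share the same 6 libraries. Of the 39 genes above the family's median GC content of 49.5%, 23 fell, with a median log2 fold change of −0.44. Of the 39 below it, 13 fell, with a median of −0.22, and 6, 6 and 7 fell without knockout replicates 1, 2 and 3. Fewer of the genes above it fell in these fits as well. In the main fit 59.0% above and 33.3% below it fell, against 19.0% of all tested genes. GC content also moved with differences that involve control replicate 2: the difference between control replicates 2 and 1 had a rho of 0.52 with GC content, and that between replicates 3 and 2 a rho of −0.59. The difference between control replicates 3 and 1 had a rho of −0.10, and the 3 knockout pairs had −0.07, 0.10 and 0.12. When the fit held offsets for length and GC content, 53 genes fell and 2 rose, and rho was −0.34. For transcript length the rho with the fold change was −0.02, and for mean log2 CPM it was −0.39.

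**Figure D5:**
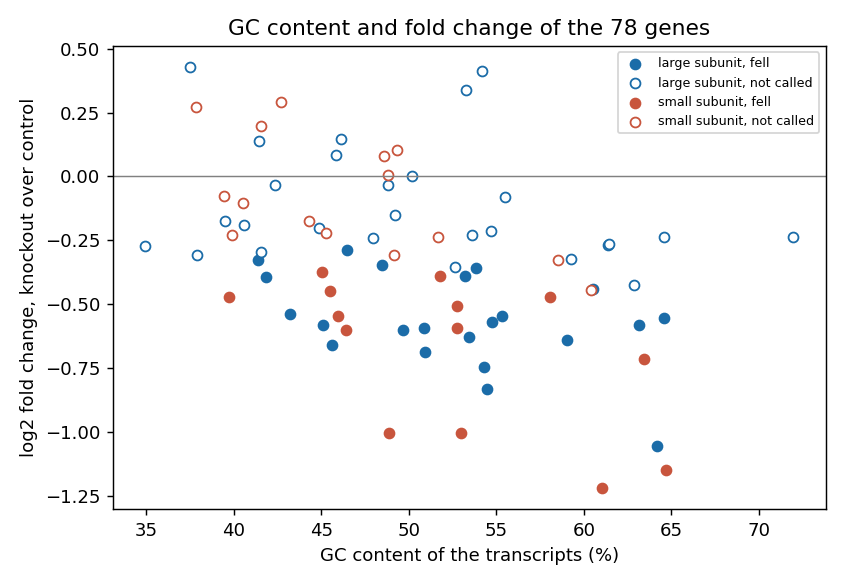
GC content of each gene's transcripts in percent (horizontal axis) against its log2 fold change, knockout over control, for large-subunit and small-subunit genes, filled where the gene fell. Genes of higher GC content sit lower (rho −0.43 over 78 genes); the 39 genes above a GC content of 49.5% have a median of −0.44 and the 39 below it a median of −0.22.

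The ETS and YY1 strings were more frequent in the promoter windows of the family than in all windows. The NRF1 string was so by a smaller margin, and none of these differences was tested. The ETS string was found on either strand in 33 of 86 windows, or 38.4%, against 12.8% of 22199 windows of protein-coding genes. The YY1 string was in 13 windows, or 15.1%, against 2.41%, and the NRF1 string (GCGC, any base, then TGCGC) in 10 windows, or 11.6%, against 7.39%. The TATA box string TATAAA was in 4 windows, or 4.65%, against 9.47%. No window held an ETS and a YY1 match that overlapped. In the main fit 19.0% of all tested genes fell, and 24.6% of genes of like abundance. Of 30 genes with an ETS match 11 fell, and of 40 matched genes without one 21 fell. Of 13 genes with a YY1 match 5 fell, and of 57 without one 27 fell. Of 9 genes with an NRF1 match 7 fell, namely MRPL17, MRPL30, MRPL34, MRPL36, MRPL45, MRPL57 and MRPS9, and of 61 without one 25 fell. These counts moved when 1 library was left out: of the genes with an NRF1 match 2 fell without knockout replicate 1 or 2 and 3 fell without knockout replicate 3, and of those with an ETS match 7 fell without knockout replicate 1 or 2 and 18 without control replicate 3. MRPL38, MRPL52, MRPS10 and MRPS18A held both an ETS and a YY1 match, and MRPS18A was the one that fell. A match describes letters in these windows and does not show that a factor binds.

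The other genes of mitochondrial translation were measured in lists taken from the pathway. Where 0 genes of such a list rose by edgeR's adjusted p, 0 were also called higher by DESeq2 and limma-voom, and 0 had a higher level at an unadjusted p below 0.05, apart from 1 gene of mitochondrial transcription and RNA stability. Of 5 ribosomal proteins that carry other names, 1 fell and none rose, a share of 20% that is close to the background of 19.0%. This was GADD45GIP1, a large-subunit protein also called CRIF1, which had 75.0, 75.4 and 81.4 CPM in the knockout libraries and 103, 159 and 128 CPM in the control libraries, and fell by 0.75 on the log2 scale (edgeR adjusted p 0.00316). CHCHD1, AURKAIP1, DAP3 and PTCD3 had log2 fold changes of 0.33, −0.25, 0.08 and 0.08 and were not called, and the count of falls was 2 without control replicate 3.

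Of 14 translation factors 5 fell and 0 rose by edgeR, and the median log2 fold change was −0.19. That is 35.7% lower, where 19.0% of all tested genes fell and 21.1% rose. TUFM, the elongation factor that delivers charged tRNAs, had 228, 229 and 233 CPM in the knockout libraries and 320, 412 and 318 CPM in the control libraries, and fell by 0.61 (edgeR adjusted p 0.00313). OXA1L, which inserts new chains into the inner membrane, fell by 0.60. The recycling factor MRRF, the translocation factor GFM1 and TACO1, an activator of cytochrome oxidase translation, fell too, with log2 fold changes of −0.47, −0.42 and −0.37. The count of falls was 3 without knockout replicate 2 or 3. GFM1 was not called without knockout replicate 2 or 3, and TACO1 was not called without any 1 knockout library or without control replicate 2.

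Among 25 factors of ribosome assembly, 9 fell and 2 rose, with a median of −0.30. These shares were 36% and 8%, against 19.0% and 21.1% of all tested genes. The RNA helicase DHX30 had 171, 180 and 180 CPM in the knockout libraries and 308, 339 and 284 CPM in the control libraries, and fell by 0.81 (edgeR adjusted p 0.000275). MPV17L2, an inner-membrane protein needed for assembly, C1QBP, an RNA-binding matrix protein, and RBFA, which binds the small ribosomal RNA, also fell, with log2 fold changes of −0.85, −0.82 and −0.53. MRM1, a methyltransferase of the large ribosomal RNA, and the GTPase MTG1 rose, with log2 fold changes of 0.77 and 0.47. MRM1 was not called without knockout replicate 3, nor MTG1 without knockout replicate 2. The list's count of falls was 4 without knockout replicate 1 and 5 without knockout replicate 2.

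Of 12 factors of mitochondrial transcription and RNA stability 3 fell, or 25.0%, close to the 19.0% of all tested genes and the 24.6% of genes of like abundance, with a median of −0.25: SLIRP, PTCD1 and the RNA polymerase POLRMT, with log2 fold changes of −0.59, −0.33 and −0.38. LRPPRC, the partner of SLIRP, had a log2 fold change of 0.35 and was not called. No gene of this list fell without knockout replicate 2 or without knockout replicate 3, 1 fell without knockout replicate 1 and 6 fell without control replicate 2. At an unadjusted p below 0.05, 3 were lower and 1 higher.

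The messages encoded by mitochondrial DNA, the templates of this ribosome, had lower means in the knockout, beside control libraries that differed widely among themselves. Of 13 such genes tested, 6 fell and 0 rose, with a median of −0.68. As a share 46.2% fell, where 19.0% of all tested genes fell and 21.1% rose. MT-ND3 had 110, 140 and 129 CPM in the knockout libraries and 214, 200 and 258 CPM in the control libraries, and fell by 0.82 (edgeR adjusted p 0.00102). It was the one gene of the list whose groups did not overlap, and the one called without control replicate 3. The other 5, MT-ND1, MT-ND2, MT-ATP6, MT-CO3 and MT-ND5, were not called without any 1 knockout library, without control replicate 2 or without control replicate 3, and 12 genes fell without control replicate 1. Mitochondrially encoded RNA took 2.15%, 2.78% and 2.51% of counts in knockout replicates 1, 2 and 3, and 2.01%, 3.06% and 4.70% in control replicates 1, 2 and 3. The mitochondrial ribosomal RNAs were not analysed here.

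Of 8 nuclear regulators tested, 5 fell and 0 rose, with a median of −0.48. As a share 62.5% fell, where 19.0% of all tested genes fell and 21.1% rose. PPARGC1B, a coactivator of mitochondrial genes, had 26.2, 24.7 and 27.1 CPM in the knockout libraries and 55.0, 61.9 and 51.6 CPM in the control libraries, and fell by 1.11 on the log2 scale (edgeR adjusted p 7.68e-05). PPRC1, a related coactivator, and the transcription factors MYC, YY1 and NRF1 fell as well, with log2 fold changes of −0.93, −0.74, −0.51 and −0.46. NRF1 was not called without any 1 knockout library or without control replicate 2. The ETS factor GABPA and its partner GABPB1 had log2 fold changes of 0.19 and 0.25 and were not called. PPARGC1A did not pass the filter on low counts.

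The cytosolic ribosomal proteins, the most alike set, moved in the same direction by a smaller median. Of 83 tested, 27 fell and 0 rose by edgeR, with 37 lower and 0 higher at an unadjusted p below 0.05, 37 lower by DESeq2 and 28 by limma-voom. By edgeR's adjusted p 32.5% fell, against 46.2% of the mitochondrial set and 19.0% of all tested genes. Of all tested genes 21.1% rose. Their median log2 fold change was −0.23, against −0.32 for the mitochondrial set. They summed to 46160 ± 3516 CPM in the knockout and 55279 ± 6568 CPM in the control (SD, n = 3 each), 16.5% lower in the knockout, and the groups overlapped, since knockout replicate 3 had 50174 CPM and control replicate 3 had 47721 CPM. The mitochondrial set summed to 3364 ± 135 CPM in the knockout and 4450 ± 262 CPM in the control (SD, n = 3 each), 24.4% lower. Both percentages depend on TMM factors that differ by group, and the difference between the 2 sets was not tested. Without control replicate 3, 44 cytosolic genes fell, and without control replicate 1, 11 rose.

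Reads of neighbouring and copied genes limit some of these values. In GENCODE release 29, 16 of the 78 genes share exons with another gene on the same strand and 29 overlap one on the opposite strand, 41 in all with either. Of the 37 genes with neither, 14 fell, where 19.0% of all tested genes fell and 24.6% of genes of like abundance. Named pseudogenes exist for 36 of the 78 genes, 81 in all, and none has a row of its own in the table, so reads from a copy may be counted at the parent or lost. Of the 19 genes with no overlap and no named pseudogene 6 fell, and MRPS34, MRPS26 and MRPS30 were among these 6. The median log2 fold change of the 19 was −0.24, against −0.32 for the family. In the family 46.2% fell, and the difference of these smaller groups from it was not tested.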

How the data were processed

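RNA-seq of 6 Huh7 libraries was used, 3 with a guide against HNRNPA2B1 and 3 with a non-targeting guide. Column-purified total RNA went into SMARTER mRNA libraries, per the labels' protocols. The table deposited by the authors holds raw counts of reads per gene. The submitters' processing notes name the hg19 build. Not given in the sources used here are the aligner, the counter, its annotation and its use of strand.

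Counts were analysed with R 4.3.3 and edgeR 4.0.16: filterByExpr defaults, TMM scaling, its quasi-likelihood test of group with no other term, and Benjamini-Hochberg adjustment over 16331 genes, with a call at an adjusted p below 0.05. The biological coefficient of variation was 17.6%. CPM, scaled by TMM, was calculated here from the deposited counts. SEs come from the fold change and its F statistic. Named by rule were the label check HNRNPA2B1, the 10 largest falls among called genes (no gene rose), the 3 highest and 3 lowest by mean log2 CPM, the MRPS18 family, MRPS30, the structural groups and up to 4 genes by smallest p in each pathway list. All other genes named were chosen after their values were seen. The genes and lists were chosen with earlier results of these data known.

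GC content, length, exon overlaps and biotypes came from GENCODE release 29, and subunit names and promoters from RefSeq GRCh38.p14. Their build differs from hg19, so no coordinate was set against the table. GC content and length were available for 84.5% of tested genes. Replicate libraries differed by a chi-square per degree of freedom of at least 9.72, so none was counted as a duplicate. The code was tested on simulated counts of 16046 genes, few of which were changed. The share recovered was 4% for 1.25-fold, 20% for 1.5-fold, 82% for 2-fold and 100% for 4-fold changes, with 8 false among 111 calls. In the data 19.0% of tested genes fell and 21.1% rose, so these shares do not measure the power of the real comparison. Alternatives were other scalings and filters, DESeq2 1.42.0, limma 3.58.1 (voom, and cyclic loess with limma-trend), offsets for GC content and length, the replicate block, a threshold of 0.01, leaving out each library and leaving out the loci that the authors' pipeline added. Plots were made in Python 3.11.15 with matplotlib 3.10.9.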

Additional observations from a re-analysis of the deposited data

How the results depend on the processing

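Of the 36 genes that fell, 22 were called lower in all 18 other settings. The number of mitochondrial ribosomal protein genes that fell was 22 with library size alone, 24 with upper-quartile scaling, 23 at an adjusted p below 0.01 and 23 to 50 without 1 library. The number that rose, 0 in the main setting, was 4 with upper-quartile scaling, 5 with library size alone, 1 without the added loci, 2 with cyclic loess and 0 to 4 without 1 library. It was 2 when offsets for GC content and length were used.

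For the large subunit, 14 genes fell with upper-quartile scaling, 13 with library size alone, 35 with the offsets, 14 at an adjusted p below 0.01 and 14 to 32 without 1 library. For the small subunit, 9 fell with library size alone, 9 at an adjusted p below 0.01 and 9 to 18 without 1 library. In the pathway lists (29 fell, 2 rose), 19 fell and 4 rose with upper-quartile scaling, 12 fell and 5 rose with library size alone, 47 fell with the offsets, 14 fell and 0 rose at an adjusted p below 0.01, and 14 to 35 fell and 1 to 5 rose without 1 library. Of the cytosolic genes, 17 fell and 1 rose with library size alone, 1 rose with upper-quartile scaling, 10 fell and 4 rose with cyclic loess, and 18 to 44 fell and 0 to 11 rose without 1 library. The share of all tested genes called under each of these settings is not given here, so the shifts have no matching background. The cause of these shifts was not tested.

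All tested genes had a median log2 fold change of 0.05 in the main setting, which upper-quartile scaling moved to 0.16 and library size alone to 0.24. With library size alone the median was −0.12 for the large subunit and −0.19 for the small subunit, or −0.36 and −0.42 less the median of all genes. With upper-quartile scaling that of the small subunit was −0.27, or −0.43 less that median. The ratio of large to small subunit, 1.60 in both groups, was 1.77 in the knockout and 1.78 in the control by nomenclature, 1.99 and 1.92 per kilobase, and 0.987 and 0.949 as geometric means.

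Over all 78 genes, 8 log2 fold changes turned sign with library size alone and 5 with upper-quartile scaling, 0 of them once the median of all genes was taken off, and 1 to 6 turned without 1 library. Of the genes named by rule, 6 turned sign under some setting. MRPS35 had 0.0030 with upper-quartile scaling, 0.080 with library size alone and 0.10 with cyclic loess. MRPS18C had 0.031 and 0.11 with the first 2 of these, and −0.17 to 0.0020 without 1 library. MRPL33 had −0.15 to 0.59 without 1 library, and MRPL47 had 0.0058 with library size alone. MRPL27 had −0.027 with DESeq2 and with its size factors, −0.0053 with no filter, −0.063 with cyclic loess, −0.0079 with the offsets and −0.22 to 0.11 without 1 library. MRPL46 had 0.074 with upper-quartile scaling, 0.15 with library size alone, 0.013 without the added loci and −0.21 to 0.040 without 1 library.

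With the replicate number as a block, 25 of the 78 genes fell, 15 of the large and 10 of the small subunit, as did 27 pathway genes, and 1 cytosolic gene rose. The numbers pair no samples in the labels, and the deviations of same-numbered libraries correlated at 0.04, −0.07 and −0.07. Those of differently numbered libraries correlated at −0.04 to 0.11. Same-numbered libraries did not stand out by this measure, and a shared batch was not tested.

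At a depth of 32517757 counts or more, counting error differed among these genes. It weighed most on the lowest ones, such as MRPL33 with 250 and 167 counts in control replicates 2 and 3. The limits are 3 libraries a group, control libraries that differ among themselves, and unknown strand and pseudogene handling. The power of the test in these data was not measured, since the simulation changed few genes.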
